A study of Mus musculus with 11 samples.

Results

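The small leucine-rich proteoglycans are secreted matrix proteins with a short, leucine-rich core, and 10 of their genes were examined: Bgn, Dcn, Aspn, Fmod, Lum, Prelp, Kera, Omd, Ogn and Chad. They were taken from the merged count table by gene symbol. The rule uses no measured value, but the list was drawn up with earlier results of these data known. All 10 were present among its 22600 genes, and all 10 were among the 16496 genes that remained after removal of low counts. RNA came from the whole distal tibia of 4 control mice and 7 BMAd-DTA mice, and 1 strand-specific library was sequenced for each. Every mouse, controls included, carried Osterix-FLPo and FAC, an Adipoq-Cre allele that has to be turned into its working orientation by FLPo. BMAd-DTA mice also carried ROSA-DTA, in which excision of a LoxP-flanked STOP cassette by Cre switches on diphtheria toxin A. All mice were on a C57BL6/SJL background, 24 weeks old and fed ad libitum, and no treatment is described that differed between the groups. For a figure that includes the RNA sequencing, the study describes mice of both groups given calcein before dissection. As a model, the genotype has limits stated in the study: Cre acts mainly in BM adipocytes (BMAds), reaches few of the adipogenic precursors of the marrow, and recombines more completely in older animals. The sample labels do not state sex, and the study describes the mice of the figures that show its RNA sequencing as male. The bone was powdered whole, so fewer cells of a type and less RNA per cell cannot be told apart.

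Members of this family bind collagen fibrils and set their diameter and spacing, and several bind growth factors of the TGF-beta and BMP families. Class I holds biglycan (Bgn), decorin (Dcn) and asporin (Aspn), and the first of these is a major non-collagenous component of bone matrix. Class II holds fibromodulin (Fmod), lumican (Lum), PRELP, keratocan (Kera) and osteomodulin (Omd), and several of these are tyrosine-sulphated or bear keratan sulphate. Osteoglycin (Ogn) belongs to class III, while chondroadherin (Chad) is a more distant relative found mainly in cartilage and bone.

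The genes are arranged in clusters. On chromosome 10 of GRCm38, the assembly behind mm10, Dcn (97479609 to 97518143), Lum (97565128 to 97572703) and Kera (97606879 to 97613692) follow each other on the plus strand, with gaps of 47.0 and 34.2 kb. On chromosome 13, Aspn (49544443 to 49567565), Omd (49582462 to 49592822) and Ogn (49608046 to 49624501) lie 14.9 and 15.2 kb apart, also on the plus strand. This trio lies within the span of Cenpp, a centromere gene on the opposite strand. Prelp (133910304 to 133921414, minus strand) and Fmod (134037254 to 134048277, plus strand) are 115.8 kb apart on chromosome 1. Chad (94565047 to 94569127) is on chromosome 11 within Acsf2, again on the opposite strand, and Bgn (73483602 to 73495933) is on the X chromosome. Counting was by strand, and the reads on the opposite strand were at most 0.366% of the total for 8 of the genes, 1.49% for Aspn and 2.83% for Omd.

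3 promoter windows are shown because the results turn on Bgn and on the pair of neighbours Omd and Ogn. Each is the stretch of 250 bases directly upstream of the RefSeq gene start on GRCm38.p6, on the plus strand, with matches to a searched motif in capitals: Bgn at chrX:73483351-73483600, Omd at chr13:49582212-49582461 and Ogn at chr13:49607765-49608014.
Bgn: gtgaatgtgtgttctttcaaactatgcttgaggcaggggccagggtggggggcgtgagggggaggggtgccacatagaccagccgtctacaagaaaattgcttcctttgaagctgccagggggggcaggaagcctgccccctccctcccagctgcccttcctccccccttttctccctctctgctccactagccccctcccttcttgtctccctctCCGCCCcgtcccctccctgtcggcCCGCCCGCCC
Omd: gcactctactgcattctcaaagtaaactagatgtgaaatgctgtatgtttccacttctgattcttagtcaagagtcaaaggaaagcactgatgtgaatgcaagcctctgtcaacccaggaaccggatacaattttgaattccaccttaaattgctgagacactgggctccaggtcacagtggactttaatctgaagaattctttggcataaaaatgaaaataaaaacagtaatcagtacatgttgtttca
Ogn: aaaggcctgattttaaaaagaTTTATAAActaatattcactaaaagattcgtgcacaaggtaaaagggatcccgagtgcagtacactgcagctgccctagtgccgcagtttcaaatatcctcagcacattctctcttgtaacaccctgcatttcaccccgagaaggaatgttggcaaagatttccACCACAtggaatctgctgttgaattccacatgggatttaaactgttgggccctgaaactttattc
RefSeq windows were found for 8 of the 10 genes (not for Dcn and Lum), and 4 motifs were searched on both strands. The GC box, GGGCGG, had 3 matches upstream of Bgn and was present in 32.7% of 32851 promoters of the same length. The TATA box, TATAAA, had 2 overlapping matches on opposite strands upstream of Ogn and was present in 12.4% of all promoters. The Runx core, TGTGGT, had 1 match upstream of Ogn and was present in 14.0% of all promoters. The AP-1 motif, TGANTCA, matched none of the 8 windows and was present in 6.75% of all promoters. The Omd window held none of the 4 motifs. GC content was 64.4% for Bgn, 38.4% for Omd and 42% for Ogn, against a median of 52.4% over all promoters. These matches describe the letters of the windows only.

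Total counts per library were 16969529 to 18637663 in controls and 17128711 to 18432805 in BMAd-DTA mice, and the samples were not pooled. A few libraries stood apart in the makeup of the bone. Control replicate 1 had a Col1a1 level of 1245 CPM (counts scaled to the size of the library), against 5588 to 6226 CPM in the other controls. Skeletal muscle markers were low in control replicate 4 and in BMAd-DTA replicates 2, 3 and 5, with a muscle score (mean log2 CPM of 8 markers) of 0.265 to 0.981 in these 4 mice and 3.60 to 6.57 in the other 7. Markers of the labelled tissue were present, since all 7 osteoblast, 5 osteocyte and 6 adipocyte genes passed the filter. In BMAd-DTA mice the median log2 fold change of the adipocyte genes was -1.29 (0 of 6 with a positive value), and Retn, the adipokine resistin, passed the test (-1.38, SE 0.17, edgeR adjusted p = 0.0205). Osteoblast genes had a median of 1.12 (7 of 7 positive), and Alpl, the alkaline phosphatase of mineralising cells, passed (1.16, SE 0.17, edgeR adjusted p = 0.0326). The summed CPM of the osteoblast genes was 900 to 1948 in controls and 1620 to 3186 in BMAd-DTA mice, and the part of these cells in the values below was not tested.

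No small leucine-rich proteoglycan gene differed between BMAd-DTA mice and controls at an adjusted p under 0.05 by edgeR's quasi-likelihood test. Bgn came closest, with an adjusted p of 0.0531, a 1.42-fold difference and no overlap between the groups. Omd showed a difference of the same size, 1.43-fold, and 1 BMAd-DTA mouse of 7 fell within the control range. Dcn and Lum had smaller differences (1.29-fold and 1.34-fold), and the interval of each of the other 6 genes included 0. Among all genes tested, 0.0727% passed with a higher and 0.00606% with a lower level in BMAd-DTA mice. At an unadjusted p under 0.05, 4 members (Bgn, Dcn, Lum and Omd) had a higher level and none a lower one, against 7.89% and 8.53% of all genes. DESeq2 called 2 members higher (Bgn, adjusted p = 1.86e-06, and Omd, adjusted p = 0.0258), against 1.92% of all genes, and none lower, against 1.82%. These 2 shares are over 22593 genes, not the 16496 of the other tests. That base holds genes without an adjusted p, which could not be called. Limma-voom with sample quality weights called 1 higher (Bgn), against 0.794% of all genes. By exact permutation, 3 members (Bgn, Dcn and Omd) had a higher level at an unadjusted p under 0.05, against 7.67% of all genes. The groups were fully separated, with BMAd-DTA mice higher, for 1 member and 1.78% of all genes, and with BMAd-DTA mice lower for no member and 1.04% of all genes. The log2 fold change was positive for 9 of the 10 members, with a median of 0.27, and for 50.4% of all genes, with a median of 0.0018. The counts describe genes chosen together and are not a test of the family.

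**Figure D1:**
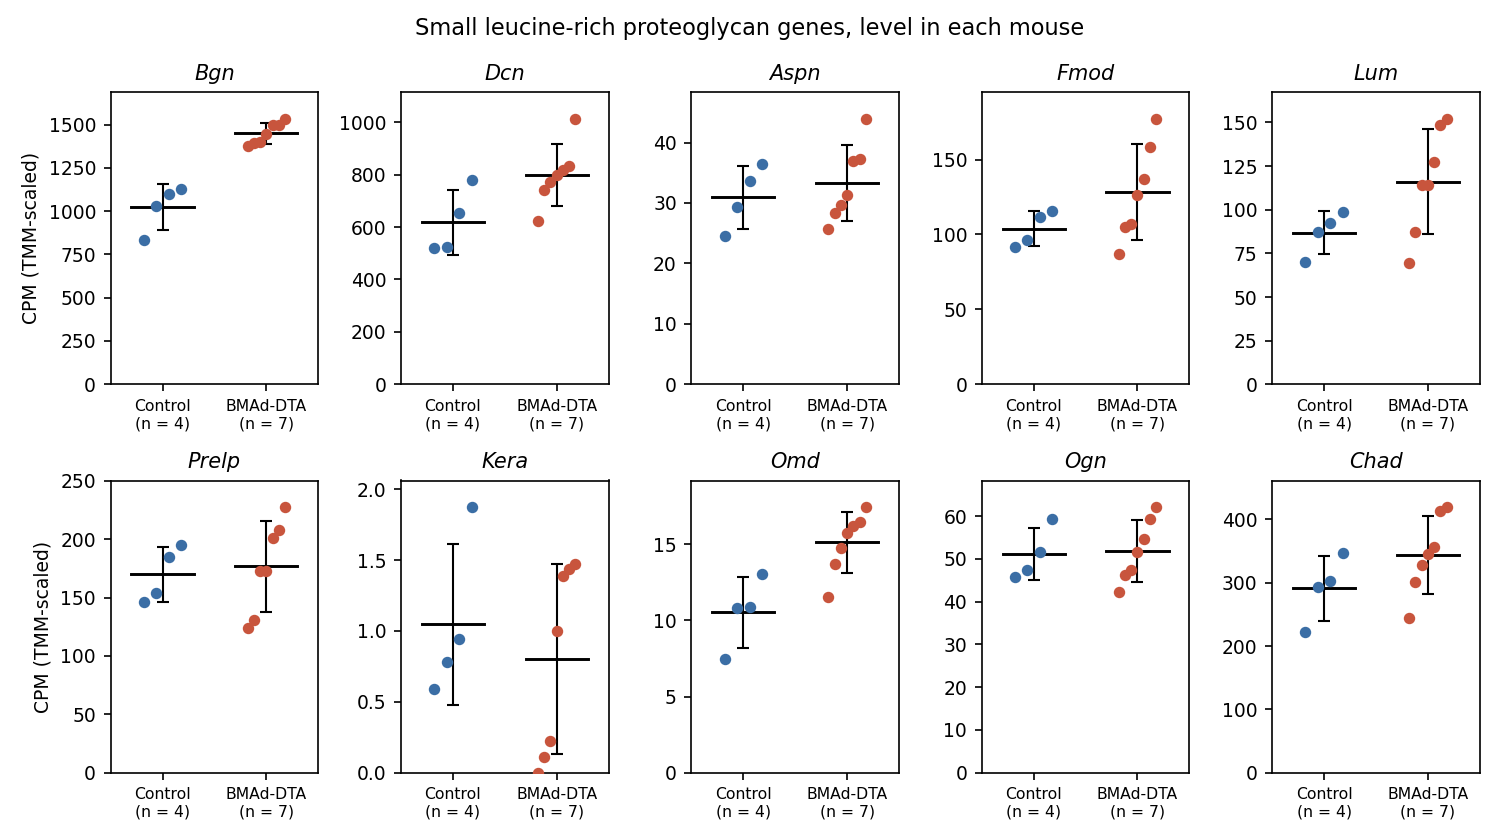
CPM of each gene (vertical axes, TMM-scaled, each from 0) in every control (n = 4, blue) and BMAd-DTA mouse (n = 7, red), with horizontal lines at the mean and bars of 1 SD. Bgn is the only gene whose groups do not overlap, with controls at 833 to 1130 CPM and BMAd-DTA mice at 1376 to 1534 CPM.

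Class I was led by Bgn, which encodes biglycan, a proteoglycan with chondroitin or dermatan sulphate chains that binds type I collagen and BMPs. Its level was 833, 1098, 1130 and 1031 CPM in the 4 controls, and in BMAd-DTA mice the lowest, median and highest values were 1376, 1443 and 1534 CPM. Every BMAd-DTA mouse lay above every control, and the highest control and the lowest BMAd-DTA mouse were 1130 and 1376 CPM. The BMAd-DTA mice were also close to each other, with a mean of 1449 ± 61.7 CPM (SD, n = 7) against 1023 ± 133 CPM (n = 4) in controls. The fitted log2 fold change was 0.50 (SE 0.086, 95% interval 0.32 to 0.69, edgeR adjusted p = 0.0531). By exact permutation over the 330 splits of the 11 mice, p was 0.00303 (two-sided), the smallest this design allows, and 0.162 after adjustment over all genes. Control replicate 1 was the lowest of the 11 libraries for Bgn, and without it the log2 fold change was 0.42 (SE 0.071, edgeR adjusted p = 0.142). The adjusted p fell under 0.05 without control replicate 3 (0.0369) and without control replicate 4 (0.0487).

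Dcn encodes decorin, which carries a single chain, binds fibrils of type I collagen and sequesters TGF-beta. It measured 655, 519, 778 and 523 CPM in controls and 622, 798 and 1014 CPM as the lowest, median and highest of the BMAd-DTA mice. The groups overlapped: 4 of 7 BMAd-DTA mice were above the highest control, and the lowest lay between the controls. Its log2 fold change was 0.37 (SE 0.14, 95% interval 0.078 to 0.66, edgeR adjusted p = 0.19), with an exact permutation p of 0.0364 before and 0.284 after adjustment over all genes. The unadjusted p was 0.0619 to 0.133 when control replicate 2 or 4 or any of BMAd-DTA replicates 2 to 7 was left out. Aspn encodes asporin, a class I member without the usual attachment site for a chain, which binds collagen and calcium. Its values were 36.4, 24.5, 33.6 and 29.3 CPM in controls and 25.7, 31.3 and 44.0 CPM as the lowest, median and highest of the BMAd-DTA mice. The ranges overlapped, and 3 BMAd-DTA mice exceeded the highest control. The log2 fold change of 0.11 (SE 0.15, 95% interval -0.21 to 0.42, edgeR adjusted p = 0.776) left differences of either sign possible, and it was 0.011 without control replicate 2.

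Among the class II genes, Omd, which encodes osteomodulin (osteoadherin), an acidic keratan sulphate proteoglycan of mineralised matrix made by mature osteoblasts, differed most. It measured 7.44, 10.8, 13.1 and 10.8 CPM in controls and 11.5, 15.7 and 17.4 CPM as the lowest, median and highest of the BMAd-DTA mice. Only BMAd-DTA replicate 5, at 11.5 CPM, lay below the highest control. A log2 fold change of 0.52 was fitted (SE 0.15, 95% interval 0.20 to 0.84), with an edgeR adjusted p of 0.114 and an exact permutation p of 0.00606 before and 0.173 after adjustment over all genes. Control replicate 1 had the lowest level here too, and without it the log2 fold change was 0.39 (SE 0.13, edgeR adjusted p = 0.353).

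Fmod and Lum encode fibromodulin and lumican, which bind the same region of type I collagen and are abundant in tendon. Fmod measured 116, 91.7, 112 and 96.3 CPM in controls and 86.7, 126 and 177 CPM as the lowest, median and highest of the BMAd-DTA mice. Lum measured 92.1, 69.9, 98.5 and 87.1 CPM in controls and 69.8, 114 and 152 CPM as the lowest, median and highest of the BMAd-DTA mice. For both genes the BMAd-DTA mice spread widely around the controls: 4 of 7 for Fmod and 5 of 7 for Lum were above every control, and 1 was below every control. Fmod had a log2 fold change of 0.30 (SE 0.17, 95% interval -0.059 to 0.67, edgeR adjusted p = 0.394). That of Lum was 0.42 (SE 0.19, 95% interval 0.015 to 0.82, edgeR adjusted p = 0.284), with an exact permutation p of 0.124 before adjustment, and of 0.0286 without BMAd-DTA replicate 1, the lowest.

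Prelp encodes a basic member that anchors basement membranes to connective tissue. It measured 195, 154, 185 and 146 CPM in controls and 124, 173 and 227 CPM as the lowest, median and highest of the BMAd-DTA mice, of which 3 were above and 2 below every control. Its log2 fold change was 0.056 (SE 0.16, 95% interval -0.28 to 0.40, edgeR adjusted p = 0.903). Its level was 154 to 227 CPM (median 195) in the 7 mice with a muscle score over 3 and 124 to 173 CPM (median 139) in the other 4. With the muscle score as a covariate, the log2 fold change was 0.16 (SE 0.12). Kera, best known from the cornea, was barely detected, at 0 to 34 counts per library. It measured 1.87, 0.942, 0.591 and 0.778 CPM in controls and 0, 0.998 and 1.47 CPM as the lowest, median and highest of the BMAd-DTA mice. BMAd-DTA replicate 2 had a count of 0, and 3 of 7 BMAd-DTA mice were below every control and 0 above. The log2 fold change of -0.38 had an SE of 0.72 (95% interval -1.93 to 1.17), which left differences of either sign possible.

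Ogn, the class III gene, encodes osteoglycin (mimecan), a small keratan sulphate protein that muscle, bone and connective tissue cells secrete. Its values were 51.7, 47.4, 59.4 and 45.8 CPM in controls and 42.2, 51.5 and 62.1 CPM as the lowest, median and highest of the BMAd-DTA mice. The groups had nearly the same centre, with 1 BMAd-DTA mouse above and 1 below every control. The log2 fold change was 0.023 (SE 0.11, edgeR adjusted p = 0.945), with a 95% interval of -0.21 to 0.26. Chad encodes chondroadherin, a collagen-binding protein without chains that attaches cells through integrins. Its values were 293, 222, 347 and 303 CPM in controls and 244, 345 and 420 CPM as the lowest, median and highest of the BMAd-DTA mice, with 3 of 7 above every control. For Chad the log2 fold change was 0.24 (SE 0.15, 95% interval -0.075 to 0.56, edgeR adjusted p = 0.443), and 0.13 without control replicate 2, the lowest control.

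**Figure D2:**
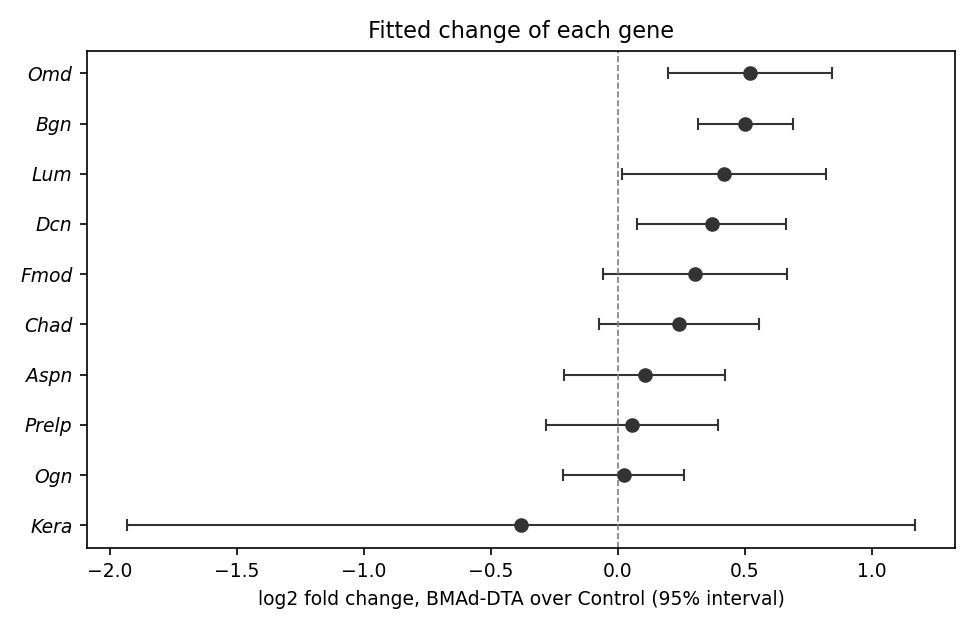
Log2 fold change of each gene, BMAd-DTA over control, with its 95% interval from the edgeR fit (horizontal axis). The intervals of Omd, Bgn, Lum and Dcn lie above 0, those of the other 6 genes include 0, and the interval of Kera runs from -1.93 to 1.17.

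To compare levels between genes, counts were divided by the length of the union of exons and scaled to the same total in each library (TPM). In controls the order was Chad at 480 ± 95.8 TPM (SD, n = 4), Bgn at 461 ± 52.1 TPM, Dcn at 291 ± 53.7 TPM and Prelp at 130 ± 18.6 TPM. Lum (98.2 ± 16.5 TPM), Fmod (86.7 ± 11.6 TPM), Ogn (54.8 ± 5.66 TPM) and Aspn (36.4 ± 7.08 TPM) followed, and Omd (12.9 ± 2.61 TPM) and Kera (1.28 ± 0.73 TPM) were lowest. Neighbours whose ranges overlapped were Chad with Bgn and Lum with Fmod. In BMAd-DTA mice Bgn led at 632 ± 22.0 TPM (SD, n = 7), followed by Chad at 547 ± 108 TPM and Dcn at 365 ± 54.7 TPM, and the order of the other genes was the one seen in controls. The ranges of Bgn and Chad, of Chad and Dcn, of Prelp and Lum, of Lum and Fmod and of Ogn and Aspn overlapped there. The first place depends on the length used: with that of the longest transcript, Bgn was at 851 TPM and Chad at 386 TPM in controls. By the union of exons, Bgn made up 23.2% to 33.7% of the summed TPM of the 10 genes in controls and 28.0% to 34.3% in BMAd-DTA mice. This share depends on the length used in the same way and was not computed with the longest transcript. The summed CPM of the 10 genes was 2237 to 2756 in controls and 2814 to 3273 in BMAd-DTA mice, without overlap, and most of it came from Bgn and Dcn. The summed TPM of the 10 genes, again by the union of exons only, overlapped, at 1373 to 1822 in controls and 1802 to 2300.5 in BMAd-DTA mice.

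Genes of a class or a cluster were then set against each other by the log2 ratio of their CPM in each mouse, in 9 comparisons tested by exact permutation (two-sided) and adjusted over the 9. None passed an adjusted p of 0.05. The neighbours Omd and Ogn, whose promoters are printed above, came closest among the members: the ratio of Omd to Ogn was 0.51 higher on the log2 scale in BMAd-DTA mice, with 6 of 7 above every control (exact p = 0.0182, adjusted p = 0.0636). Without BMAd-DTA replicate 5, the only one within the control range for Omd, the adjusted p was 0.0214, and without control replicate 1 the difference was 0.35 with an adjusted p of 0.338, the extremes over the mice left out. For the neighbours Aspn and Omd the difference was -0.43 (exact p = 0.164), or -0.19 without control replicate 1, and for Dcn and Lum it was -0.0052 (exact p = 0.985). Bgn and Dcn, the abundant pair of class I, differed by 0.13 in their response (exact p = 0.445), and Bgn and Aspn by 0.41 (exact p = 0.0788). Without control replicate 1 these values were 0.0030 and 0.23. The ratio of Lum to Kera differed by 1.17 (exact p = 0.197) and that of Fmod to Prelp by 0.24 (exact p = 0.37). Over the mice left out in turn, these ranged from 0.76 (without BMAd-DTA replicate 2) to 1.52 and from 0.15 (without BMAd-DTA replicate 3 or 7) to 0.32. The adjusted p was at least 0.177 for these 6 ratios.

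The remaining ratios set both abundant members against Col1a1, the gene of the main collagen chain of bone. Col1a1 measured 1245, 5588, 6226 and 5823 CPM in controls and 7609, 12361 and 18037 CPM as the lowest, median and highest of the BMAd-DTA mice. All BMAd-DTA mice were above all controls, and control replicate 1 was far below the other controls. The ratio of Dcn to Col1a1 was 1.14 lower in BMAd-DTA mice (difference -1.14 on the log2 scale, 6 of 7 below every control, exact p = 0.00909, adjusted p = 0.0636). That of Bgn to Col1a1 differed by -1.01 (5 of 7 below every control, exact p = 0.0212, adjusted p = 0.0636). Control replicate 1 carries much of both differences: without a single mouse they ranged from -1.40 to -0.55 for Dcn and from -1.18 to -0.55 for Bgn, and the smallest in size were those without this library (adjusted p = 0.338 for Dcn and 0.35 for Bgn).

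Whole distal tibia can hold tendon and cartilage as well as bone, and markers of both were measured. All 6 tendon markers had a positive log2 fold change (median 0.56), none passed the adjusted test, and their summed CPM was 89.4 to 143 in controls and 140 to 247 in BMAd-DTA mice. The defining tendon genes Tnmd and Scx were near the limit of detection, with control means of 1.41 and 1.20 CPM. The tendon score was 2.70 ± 0.17 (mean log2 CPM, SD, n = 4) in controls and 3.26 ± 0.28 (n = 7) in BMAd-DTA mice (exact permutation p = 0.0121, 6 of 7 above every control). Of the 8 chondrocyte markers, 7 were tested and all 7 had a positive log2 fold change (median 0.19), none past the adjusted test. Their summed CPM was 450 to 723 in controls and 781 to 972 in BMAd-DTA mice, most of it Col2a1 and Comp, and the score was 4.19 ± 0.37 against 4.70 ± 0.18 (exact permutation p = 0.00909, 5 of 7 above every control). The largest log2 fold changes among these markers were those of Col2a1 (1.11) and Col9a1 (0.95, control mean 0.74 CPM). Snorc was at 0.41, and Acan, Comp, Col10a1 and Sox9 were at 0.12 to 0.19. The muscle score was 0.479 to 6.57 in controls and 0.265 to 5.97 in BMAd-DTA mice (exact permutation p = 0.376). Fibroblast markers were mixed (3 of 5 with a positive value, median 0.15).

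Of 20 relations of a member with the tendon or the chondrocyte score, 1 passed an adjusted permutation p of 0.05, and by Pearson's r only. After subtraction of the group means, Fmod had a Pearson r of 0.89 with the tendon score over the 11 mice (100000 permutations within groups, p = 0.00172, adjusted over 20 relations 0.0344), a Spearman rho of 0.83 (p = 0.00896, adjusted 0.179) and an r of 0.73 without the 2 mice farthest from the median score. Aspn had an r of 0.77 (permutation p = 0.0113, adjusted 0.113, rho 0.67, p = 0.041, and r 0.68 without 2 mice). Chad had an r of 0.69 (permutation p = 0.0261, adjusted 0.174, rho 0.67, p = 0.0441), which was 0.42 without 2 mice. Lum had an r of 0.64 (permutation p = 0.0645, adjusted 0.322, rho 0.64, p = 0.0669), which was 0.70 without 2 mice, and Dcn an r of 0.30 (permutation p = 0.375, rho 0.20, p = 0.569), which was 0.69 without 2 mice. Bgn had an r of -0.0089 (permutation p = 0.975, rho -0.055, p = 0.869, and r 0.075 without 2 mice). Against the chondrocyte score, the highest r was that of Bgn, 0.65 (permutation p = 0.0935, adjusted 0.374, rho 0.51, p = 0.213).

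**Figure D3:**
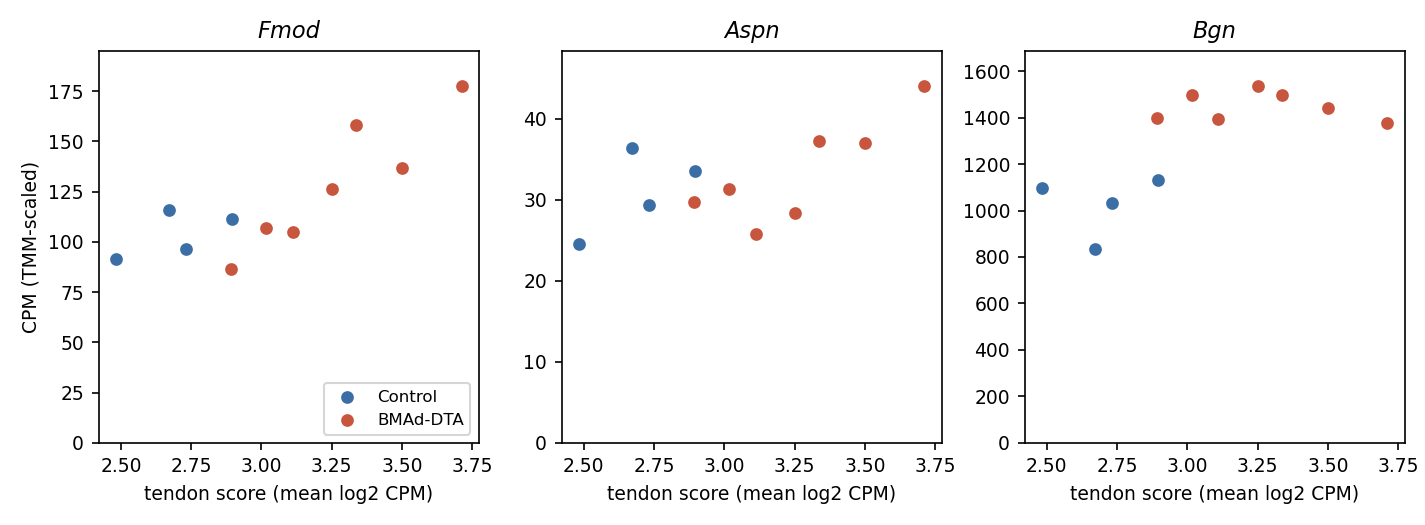
CPM (vertical axes, TMM-scaled, from 0) against the tendon score (horizontal axes, mean log2 CPM of 6 markers) for Fmod, Aspn and Bgn, 1 point per mouse (4 controls in blue, 7 BMAd-DTA in red). The Fmod level is higher in mice with a higher score, up to 177 CPM at a score of 3.71, while Bgn stays between 1376 and 1534 CPM in all 7 BMAd-DTA mice over scores of 2.89 to 3.71.

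With the tendon score as a covariate in the edgeR fit, the log2 fold change of Bgn was 0.50 (SE 0.14) and that of Omd 0.62 (SE 0.23). Those of Fmod (-0.35, SE 0.14), Aspn (-0.34, SE 0.16), Chad (-0.17, SE 0.18) and Lum (-0.073, SE 0.23) turned negative, and that of Dcn was 0.21 (SE 0.20). No adjusted p passed in this fit, for members or for any gene. With the chondrocyte score as a covariate, Bgn was at 0.35 (SE 0.11), Dcn at 0.30 (SE 0.21) and Omd at 0.40 (SE 0.21). Lum was at 0.20 (SE 0.27) and Chad at 0.047 (SE 0.20) in that fit. With the muscle score, Bgn (0.51, SE 0.093), Dcn (0.37, SE 0.15) and Omd (0.52, SE 0.16) were as large as without it. Both scores of connective tissue differ with genotype, so their share in these values cannot be told apart from that of genotype.

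**Figure D4:**
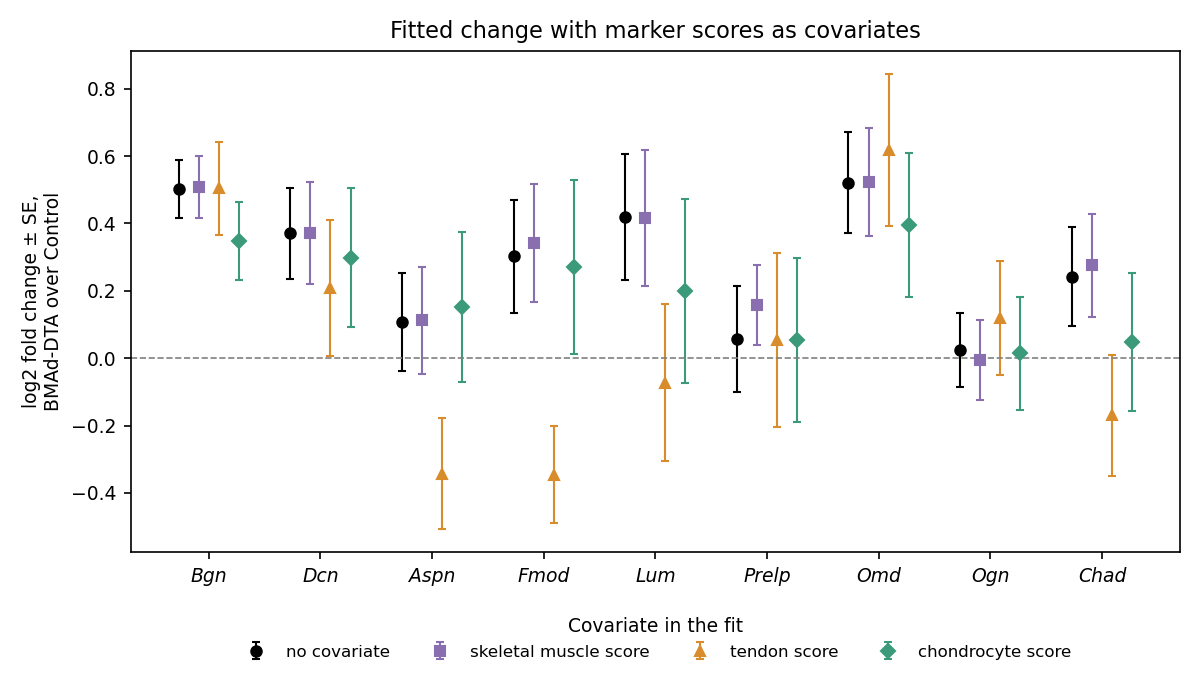
Log2 fold change, BMAd-DTA over control, with its SE (vertical axis), for 9 of the 10 genes (Kera is left out for its SE of 0.72) without a covariate (black) and with the skeletal muscle (purple), tendon (orange) or chondrocyte (green) score in the fit. Bgn, Dcn and Omd stay above 0 by more than 1 SE in all 4 fits, Dcn narrowly with the tendon score (0.21, SE 0.20). Fmod moves from 0.30 to -0.35 with the tendon score.

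Within the groups, the members also went together unevenly. Correlations of log2 CPM were taken after subtraction of the group means, over 11 mice whose libraries differed in tissue makeup. The highest were those of Fmod with Aspn (r = 0.81), Fmod with Chad (0.76), Lum with Aspn (0.76) and Fmod with Lum (0.71). Bgn was nearest to Omd (0.59), while Omd and Fmod had an r of -0.57. The cluster neighbours Omd and Ogn had an r of 0.16, and Dcn and Lum one of 0.43. These are descriptions without a test.

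Among 12973 genes whose mean count was 50 or more, the most similar to each member by the same measure were listed by rank. They were Crocc and Rgl3 for Bgn (r = 0.95 for both), Cdk11b and Rdh5 for Dcn (0.96 for both), Zfp808 (0.89) and Gmeb1 (0.88) for Aspn, and Nudt12 (0.91) and Twnk (0.90) for Fmod. For Lum they were Hdhd2 (0.90) and Gm50107 (0.88), for Prelp Cntfr (0.93) and Cox6a2 (0.92), and for Kera Usp54 (0.90) and Gm12191 (0.89). For Omd they were Fam114a1 (0.93) and Otud3 (0.91), for Ogn Ahcyl1 and Mylip (0.91 for both), and for Chad Angptl2 and Fam160b2 (0.91 for both). None of these 20 genes differed between the groups at an adjusted p under 0.05. Each r was picked from the top of a ranking of 12973 genes, rests on 11 mice and was not tested.

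The other tested genes of the family had control means from 0.96 CPM (Epyc) to 20.8 CPM (Ecm2). Of the 10 members, Omd (10.5 CPM) and Kera (1.05 CPM) lay in this range. Of 8 in the table, 7 were tested (Optc was below the filter), 5 had a positive and 2 a negative log2 fold change, the median was 0.20, and none passed the adjusted test. Podnl1, which encodes a podocan-like protein of class V, measured 18.3, 20.3, 19.8 and 19.1 CPM in controls and 18.1, 25.8 and 32.3 CPM as the lowest, median and highest of the BMAd-DTA mice. Of the 7 BMAd-DTA mice, 6 were above every control and 1 below every control for Podnl1 (log2 fold change 0.44, SE 0.15, edgeR adjusted p = 0.156). Tsku, which encodes tsukushi, a secreted inhibitor of BMP and Wnt signals, measured 8.65, 10.6, 20.7 and 10.4 CPM in controls and 13.5, 20.8 and 35.0 CPM as the lowest, median and highest of the BMAd-DTA mice. The Tsku groups overlapped through control replicate 3 (log2 fold change 0.78, SE 0.29, edgeR adjusted p = 0.205). The log2 fold changes of the others were 0.44 (SE 0.34) for Chadl, 0.20 (SE 0.38) for Epyc, 0.15 (SE 0.15) for Ecm2, -0.38 (SE 0.40) for Nyx and -0.40 (SE 0.38) for Podn, all within 1.5 SE of 0.

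The proteins the family works with were examined by list. Over all genes, 50.4% had a positive log2 fold change and 7.89% a higher level at an unadjusted edgeR p under 0.05. DESeq2 called 1.92% of its 22593 genes higher. For the 26 enzymes that build and sulphate the chains the median log2 fold change was 0.072, with 20 positive and none past the edgeR test. The largest was 0.78 (SE 0.29) for the sulphotransferase Chst5, at a low control mean of 1.57 CPM. The smallest was -0.21 (SE 0.16) for Csgalnact1, which starts chondroitin chains. Ust, the uronyl sulphotransferase, was called by DESeq2 (adjusted p = 0.0373). Among 12 collagen genes that the family binds, 12 were positive with a median of 0.81, from Col1a1 at 1.35 (SE 0.39) to Col14a1 at 0.037 (SE 0.24), and 9 had an unadjusted p under 0.05. None of the 12 passed edgeR's adjusted test, and DESeq2 called 6.

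Of 9 proteinases that process or cleave these proteins, 8 were positive, with a median of 0.83 and extremes of 2.12 (SE 0.40) for Tll2, a relative of the enzyme that matures biglycan and procollagens, and -0.10 (SE 0.10) for Adamts5. Tll2 was near the limit of detection, with a control mean of 0.63 CPM. Mmp2, a gelatinase, passed the test. It measured 87.3, 89.3, 103 and 102 CPM in controls and 137, 167 and 206 CPM as the lowest, median and highest of the BMAd-DTA mice. Its groups did not overlap, and its log2 fold change was 0.83 (SE 0.12, edgeR adjusted p = 0.0326). DESeq2 called 4 of the proteinases (Bmp1, Tll2, Mmp2 and Mmp14). The 18 growth factors, receptors and signalling partners had a median of 0.032 with 10 positive, from 0.98 (SE 0.22, edgeR adjusted p = 0.072) for Ccn4, a Wnt-induced matricellular protein of osteoblasts, to -0.32 (SE 0.18) for Cd14. Ccn4 was the 1 gene of this list that DESeq2 called (adjusted p = 0.000458). Among these lists, the median of the 10 members, 0.27, was above those of the enzymes and the signalling partners and below those of the collagens and the proteinases.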

How the data were processed

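RNA of whole distal tibiae was measured in 4 control and 7 BMAd-DTA mice, assigned by genotype in the labels. Reads were checked with FastQC 0.11.9 and aligned to mm10 with STAR (study methods and submitters' notes), and the authors deposited whole-number counts per gene, without normalization, per library and in a table of all libraries. For the genes it holds, that table equals the read-strand column of the library files, in which 16668 genes passed the filter. No pair of libraries of a group was alike within sampling noise (chi-square per gene at least 18.3 over 27 pairs). The labels give no litter, so p-values measure the spread between these samples.

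The main test was edgeR's quasi-likelihood test (edgeR 4.0.16, R 4.3.3) after filterByExpr and TMM scaling (two-sided, genotype only, Benjamini-Hochberg over 16496 genes). The common biological coefficient of variation was 0.202, and the SE is the log2 fold change over the square root of F. Exact permutation tests and scores used log2 CPM with a prior count of 2 (Python 3.11.15, numpy 2.4.6, scipy 1.17.1). Positions and lengths came from GENCODE M21 (99.9% of identifiers matched), promoters from RefSeq. Named genes were all members, every tested gene of the other-family list, the extremes and called genes of the other lists, and the 2 most similar genes per member. The members and lists were chosen with earlier results of these data known. Alternatives were DESeq2 1.42.0, limma-voom (limma 3.58.1), other scalings, filters, counts and lengths, marker scores as covariates and each mouse left out. The erythroid marker list is not reported here. The steps were tested on simulated data. Multimapping reads are not in the counts. The authors also ran DESeq2 on these counts, and none of its output was used.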

Additional observations from a re-analysis of the deposited data

How the results depend on the processing

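No paired analysis was possible because the labels number no replicates and tie no mouse of one group to a mouse of the other. Low counts and a wide spread between mice limit Kera, at 0 to 34 counts per library. The number of members called higher was 2 with DESeq2, 1 with limma-voom with sample quality weights and 1 with median-ratio scaling, 0 to 1 with a mouse left out, and 0 in the other settings. Over all genes, 433 of 22593 were called higher with DESeq2, 131 of 16496 with limma-voom and 15 of 16496 with median-ratio scaling. The number was 0 to 176 with a mouse left out and 0 to 16 in the other settings. No member was called lower in any setting, against 0 to 412 of all genes. With a mouse left out, 2 to 5 members had a higher level at an unadjusted p under 0.05. Over all genes, 967 to 1635 of the 16361 to 16799 tested did so in these fits. Bgn, Dcn and Omd stayed positive in every fit, from 0.35 to 0.56 for Bgn, from 0.19 to 0.50 for Dcn and from 0.39 to 0.64 for Omd. With the tendon score as a covariate, and with tendon and muscle scores together (chosen after seeing the data), the log2 fold change turned negative for Fmod (-0.35 and -0.32), Lum (-0.073 and -0.15), Aspn (-0.34 and -0.39) and Chad (-0.17 and -0.14). The cause was not tested. Ogn was at -0.0058 with the muscle score, at -0.12 in the 7 mice with a muscle score over 3 (also chosen after seeing the data) and at -0.026 to 0.11 with a mouse left out. Kera was at -1.32 with limma-voom, at -1.48 with the tendon score, at -1.24 with tendon and muscle scores together, at 0.17 with the chondrocyte score and at -0.59 to 0.059 with a mouse left out, and Prelp at -0.014 to 0.13. By permutation with a mouse left out, the differences were -0.031 to 0.093 for Ogn, -0.0054 to 0.18 for Aspn and -0.034 to 0.11 for Prelp. With a mouse left out, the log2 ratio of Dcn to Lum was -0.084 to 0.084, that of Omd to Ogn 0.35 to 0.59 and that of Dcn to Col1a1 -1.40 to -0.55, and the adjusted p of the latter ratios was 0.0214 for both without BMAd-DTA replicate 5 and 0.338 for both without control replicate 1. The number of genes called over the whole table was 0 without control replicate 1 or 2 and without BMAd-DTA replicate 1 or 6. It was 292 without control replicate 3.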

Other observations

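The cell types that whole distal tibia can hold were followed by marker lists, and the extremes of the lists are given as log2 fold changes. Bone cells ran from 1.28 for Bglap, the osteocalcin gene, to 0.26 for Runx2, the osteoblast master factor, and from 0.80 for Sost, the sclerostin gene of osteocytes, to -1.42 for Fgf23, the phosphate hormone gene. Fgf23 was near the limit of detection (SE 0.67, control mean 1.95 CPM, a count of 0 in 1 library). The osteocyte median was 0.70, with 4 of 5 positive. Chondrocyte markers ran from 1.11 for Col2a1 to 0.12 for Comp, and tendon markers from 1.07 for Col22a1 to 0.055 for Cilp2. Adipocyte markers ran from -0.99 for Lep to -1.38 for Retn. Skeletal muscle markers had a median of -0.84, from -0.68 for Acta1 to -1.76 for Myh1, with wide errors (SE 1.13 and 1.19). The lists of marrow cells were closer to 0. Marrow stroma had a median of -0.17, from 0.064 for Ebf3 to -0.48 for Lepr. Endothelium had a median of -0.072, from -0.017 for Pecam1 to -0.11 for Kdr. Neutrophil genes had a median of -0.071, from 0.10 for Mpo to -0.13 for Ltf. Fibroblast markers ran from 0.39 for Clec3b to -0.11 for Pi16. Of the genes in these lists, Alpl and Retn alone passed the edgeR adjusted test, and the part of each cell type in the levels of the proteoglycan genes was not tested.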
